A study of Mus musculus with 26 samples.

Results

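Resident alveolar macrophages taken from mouse lungs 3 days after lipopolysaccharide (LPS) was placed in the trachea were compared with resident alveolar macrophages from untreated lungs. The comparison was chosen by the cell type, treatment and time in the labels and uses 6 of the 26 RNA-seq libraries of the series, 3 from each group. The other 20 libraries are resident cells at days 1 and 7 and macrophages derived from bone marrow at days 1, 3 and 7, and their values are given only where they bear on the day 3 cells. The labels name mouse, lung, the cell type and the treatment. They do not state the strain, genotype, age or sex of the mice, the dose of LPS or the gates of the sort, apart from the word Young in the column names of the untreated cells. Nothing in them says that replicates came from separate mice, so the p-values rest on a spread between libraries that may be only technical. Resident cells are written AM, bone marrow-derived cells BM, and AM_day3.2 is the second library of its group.

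Alveolar macrophages live on the airway side of the alveolar wall, clear surfactant lipid and inhaled particles, and depend on GM-CSF and the nuclear receptor PPARγ. LPS, a glycolipid of the outer membrane of Gram-negative bacteria, binds TLR4 with its partners CD14 and MD-2. One arm of the receptor signals through MyD88 to NF-κB and inflammatory cytokines, the other through TRIF to type I interferon and its target genes. The response is shaped afterwards by inhibitors that the same pathway induces and, in the lung, by the arrival of neutrophils and monocytes.

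The values are read counts per gene, scaled to CPM, that is, relative to the total count of the library after TMM adjustment, and a gene is called when edgeR's quasi-likelihood F test gives a Benjamini-Hochberg adjusted p under 0.05 over all genes tested. Differences are fitted log2 fold changes, day 3 minus day 0, with their standard errors after ±, and a bare number in brackets after a gene symbol is always such a difference, never a level. Total counts per library ran from 11244884 to 14501585 at day 3 and from 35780951 to 80816742 at day 0, so low transcripts were read more finely in the untreated cells. The median Pearson correlation between replicates was 0.921 at day 3 and 0.959 at day 0. On the principal components of the 6 libraries the first held 48.4% of the variance and separated the groups, and the second, with 19.7%, spread the day 3 libraries. The 3 day 0 libraries carry the library-name prefix 4645 and every later resident library the prefix 5341, so LPS and whatever the prefix stands for cannot be told apart in the day 3 against day 0 comparison. Days 1, 3 and 7 share the prefix 5341, and contrasts among them are given for that reason. Summed RNA of 4 Y-linked genes was 146 to 227 CPM at days 0, 1 and 3 and 0.152 to 4.09 CPM at day 7, where Xist was at 280 to 328 CPM, so day 7 differs from day 3 in sex-linked RNA as well as in time. AM_day0.1 held both kinds, with Xist at 144 CPM, and AM_day3.2 held Xist at 20.8 CPM.

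At day 3 resident macrophages carried a broad set of transcripts that were close to 0 in untreated cells. Of 17143 genes tested, 306 were called higher (1.78%) and 124 lower (0.723%), together 430 (2.51%), the shares beside which counts over gene lists stand. The rises were steeper: 181 of them were at least 4-fold, against 15 of the falls, and the median was 2.43 for called rises and −1.21 for called falls, beside −0.07 over all genes. In 424 of the 430 the 3 libraries of one day lay entirely above those of the other, which held for 33.7% of all genes. The split between rises and falls depended on the model. A fit to the 2 groups alone called 2327 genes, 45.2% of them higher, and DESeq2 called 937 (5.47%), 52.7% of them higher, against 71.2% here. Without AM_day3.2 the count was 264, without AM_day0.1 271 and without AM_day0.2 269. Every called gene given below with its library values was among those without overlap. For the largest rises and falls and for called genes picked from lists by size of change, no overlap was a condition of choice.

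**Figure D1:**
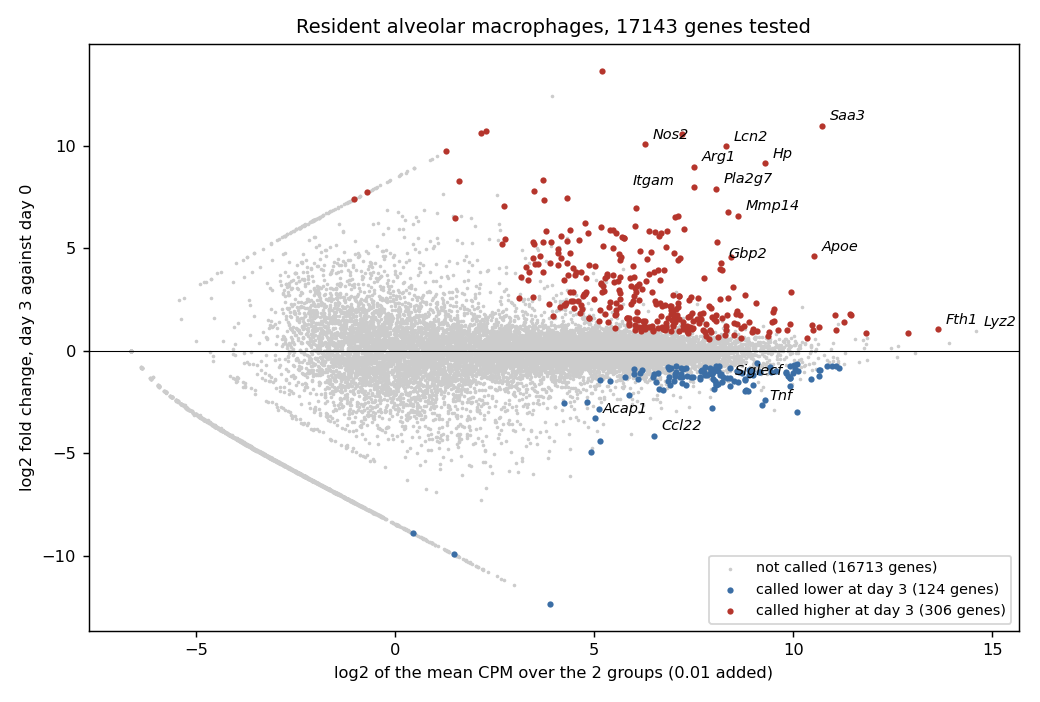
Log2 fold change at day 3 against day 0 (vertical) over the log2 mean CPM of both groups (horizontal) for 17143 genes, with the 306 called higher in red and the 124 called lower in blue. The lines of points along the upper and lower left edges are genes with 0 counts in every library of a group, whose fitted values are not fold changes. Among abundant transcripts the large differences are rises, with Saa3 among the farthest.

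The 4 transcripts that mark the day 3 cells were near 0 in every untreated library and abundant in every treated one. Saa3 (ENSMUSG00000040026, chromosome 7, 46711998 to 46715700), an acute phase serum amyloid A made by macrophages, stood at 1584, 6074 and 2516 CPM at day 3 and 0.250, 1.75 and 3.16 CPM at day 0, a difference of 10.98 ± 1.25 (adjusted p = 6.4e-06). AM_day3.2 was the highest day 3 library and the spread within day 3 was far smaller than the distance to day 0. Haptoglobin, Hp (ENSMUSG00000031722, chromosome 8, 109575128 to 109579172), which binds free haemoglobin, was the most even of the 4, with 1179.5, 1399 and 1169 CPM at day 3 and 2.54, 2.64 and 1.41 CPM at day 0 (9.13 ± 0.49, adjusted p = 2.1e-12). Pla2g7 (ENSMUSG00000023913, chromosome 17, 43568098 to 43612201) encodes the lipoprotein-associated phospholipase that hydrolyses platelet-activating factor. It stood at 338, 844 and 414 CPM at day 3 and 2.34, 1.502 and 2.88 CPM at day 0 (7.90 ± 0.49, adjusted p = 5.1e-11). Arginase 1, Arg1 (ENSMUSG00000019987, chromosome 10, 24915221 to 24927484), which turns arginine into ornithine and urea, was the least even of them at 133, 649 and 309 CPM at day 3 and 0.764, 0.587 and 0.819 CPM at day 0 (8.97 ± 1.46, adjusted p = 0.00052). All 4 kept their calls under each of the 26 alternatives run. In bulk RNA, fewer cells of a type and less RNA per cell cannot be told apart.

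**Figure D2:**
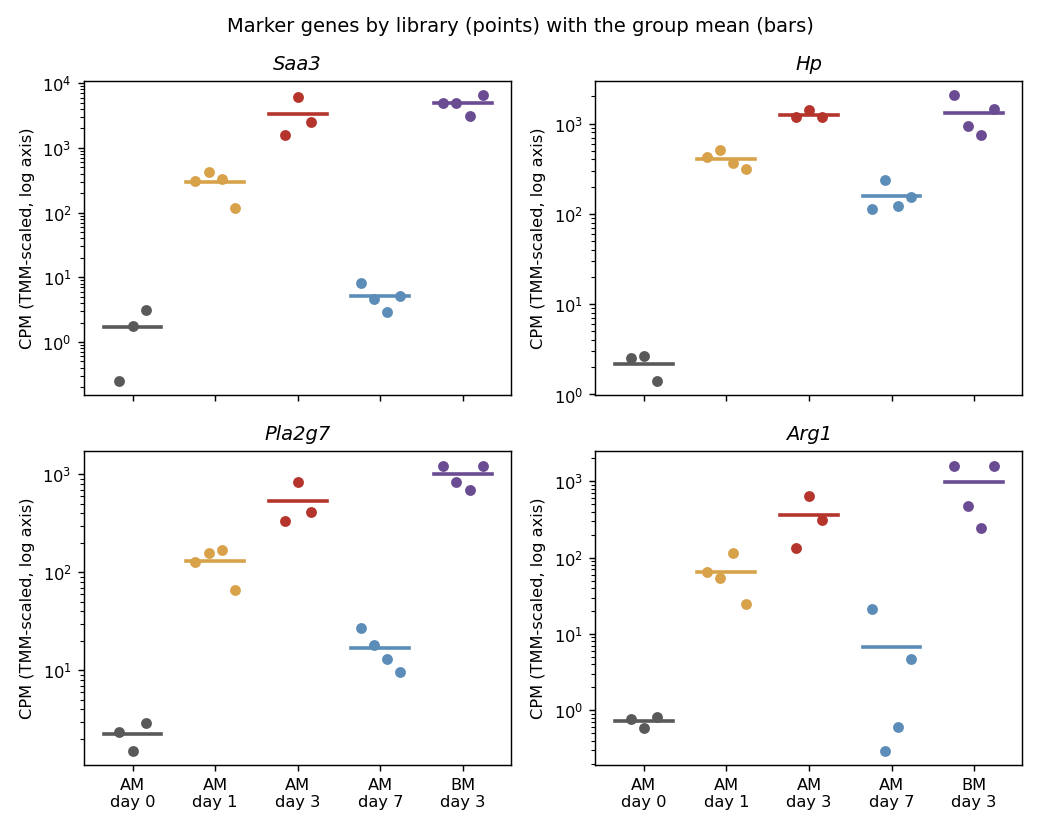
CPM on a log axis of Saa3, Hp, Pla2g7 and Arg1 in each library of resident cells (AM) at days 0, 1, 3 and 7 and of bone marrow-derived cells (BM) at day 3, with bars at the group means. All 3 day 3 resident libraries lie above all 3 day 0 libraries in each panel, and Saa3 at day 7 is back to 2.89 to 8.03 CPM while Hp is still at 113 to 239 CPM.

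All 4 markers were lower again at day 7, by contrasts within the one library prefix. From day 3 to day 7 the differences were −9.34 ± 1.03 for Saa3, −5.74 ± 1.11 for Arg1, −4.97 ± 0.38 for Pla2g7 and −2.99 ± 0.33 for Hp (largest adjusted p = 0.0053). No library left out ended these calls. The day 7 ranges of Hp (113 to 239 CPM) and Pla2g7 (9.64 to 26.8 CPM) still lay above those of day 0. The step from day 1 to day 3 was smaller, and its calls depended more on single libraries. Saa3 was at 119 to 429 CPM at day 1 and rose by 3.51 ± 0.80 (adjusted p = 0.040), a call lost in 10 of 14 fits that left out 1 resident library. Hp rose by 1.62 ± 0.32 from 317 to 516 CPM (adjusted p = 0.011) and Pla2g7 by 2.03 ± 0.34 from 66.8 to 170.2 CPM (adjusted p = 0.0023). Without AM_day3.2 neither was called, with adjusted p-values of 0.0815 and 0.057. Arg1, at 24.8 to 115 CPM at day 1, differed by 2.50 ± 0.97 and was not called (adjusted p = 0.31). Bone marrow-derived cells at day 3 also held the 4 transcripts, with 3142 to 6504 CPM of Saa3, 754 to 2054 of Hp, 699 to 1232 of Pla2g7 and 243 to 1611 of Arg1. The highest Hp value is that of BM_day3.1, a library with transcripts of other cells. Its endothelial and fibroblast markers summed to 27632 CPM, beside 104 to 386 in its replicates. Its neutrophil markers summed to 3479 CPM, beside 502 to 675.

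The windows around the annotated starts of Saa3 and Pla2g7 were searched for short motifs of factors that act downstream of LPS or interferon. Both windows are printed because these genes rose from near 0. No such window was available for Hp or Arg1, which also rose from near 0. RefSeq windows on GRCm38.p6 run from 250 bases before the start to 50 after it, 5′ to 3′ on the gene's strand, with position 0 at the start. Capitals mark matches on either strand to GAAANNGAAA (interferon-stimulated response element, ISRE), GGGANNTTCC (κB), TTNNGCAA (C/EBP), TTCNNNGAA (STAT, GAS) and TGANTCA (AP-1). The RefSeq start lies 24 bases inside the gene as GENCODE places it for Saa3 and 353 bases inside for Pla2g7, so the whole Pla2g7 window lies within the GENCODE gene. The windows are chr7:46715627-46715926 on the minus strand and chr17:43568201-43568500 on the plus strand.
Saa3: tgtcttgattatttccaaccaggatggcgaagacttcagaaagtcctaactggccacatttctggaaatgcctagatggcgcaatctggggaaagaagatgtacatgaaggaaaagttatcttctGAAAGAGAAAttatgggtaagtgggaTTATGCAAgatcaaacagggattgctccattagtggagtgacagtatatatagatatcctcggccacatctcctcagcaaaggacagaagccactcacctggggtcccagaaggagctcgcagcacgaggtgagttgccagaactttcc
Pla2g7: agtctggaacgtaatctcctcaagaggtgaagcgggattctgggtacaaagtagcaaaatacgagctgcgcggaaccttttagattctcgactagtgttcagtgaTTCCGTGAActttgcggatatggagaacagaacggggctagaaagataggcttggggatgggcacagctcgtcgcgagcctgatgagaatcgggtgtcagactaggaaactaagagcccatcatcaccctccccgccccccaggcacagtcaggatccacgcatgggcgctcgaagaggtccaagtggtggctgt
Saa3 held an ISRE match from −125 to −116 and a C/EBP match from −99 to −92, and Pla2g7 a GAS match from −145 to −137. Of 11028 tested genes with a window, 3.25% held the ISRE pattern, 8.71% C/EBP, 7.00% GAS, 5.22% AP-1 and 1.48% κB. Among the 240 called rises with a window the shares were 13.8%, 15.4%, 9.58%, 10.8% and 4.17% in the same order. These shares are descriptions of the letters, with no test.

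Other secreted defence proteins rose beside the 4 markers. In a list of 21 acute phase and antimicrobial proteins, 19 were tested, 7 rose (36.8%, beside 1.78% of all genes) and none fell, with a median of 2.89. The 7 include Saa3 and Hp, and of the other 17 tested 5 rose (29.4%). Lcn2, the lipocalin that sequesters bacterial siderophores, stood at 382, 552 and 971 CPM at day 3 and 0.250, 1.02 and 0.593 CPM at day 0 (9.98 ± 1.00, adjusted p = 1.1e-06), and AM_day3.3 was its highest library. The serine protease inhibitors Serpina3g (6.22) and Serpina3f (5.19), complement factor B, Cfb (5.00), and C3 (2.89) also rose (largest adjusted p = 0.00061). Lyz2, the macrophage lysozyme and the most counted member, was at 40644, 26428 and 31029 CPM at day 3 and 17439, 14585 and 19106 CPM at day 0, which did not overlap, yet its difference of 0.94 ± 0.27 missed the threshold (adjusted p = 0.067). Summed over the list, day 3 libraries held 36779 to 46069 CPM and day 0 libraries 15070.0 to 19731. Lyz2 made up most of these sums, and without it they were 5425 to 10351 CPM at day 3 and 485 to 624 at day 0. Saa1 and Saa2 share sequence with each other and their counts are uncertain, and Saa2 had no count in the 6 libraries.

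Inflammatory cytokines held both rises and falls. Of 34 cytokines and chemokines, 6 rose (17.6%, beside 1.78% of all genes) and 2 fell (5.88%, beside 0.723%), with a median of −0.03, or −0.07 with members at 0 in 1 group set to their bound and the member at 0 in both left out. Cxcl9, an interferon-induced attractant of T cells, was at 172, 186 and 241 CPM at day 3 and 3.73, 2.48 and 4.89 CPM at day 0 (5.76 ± 0.80, adjusted p = 6.7e-05). Il12a, the p35 chain of interleukin 12, was low but present at 5.13, 5.54 and 7.38 CPM at day 3 and 0.0376, 0 and 0 CPM at day 0 (8.26 ± 1.63, adjusted p = 0.0031). Cxcl3 (3.11), Ccl9 (2.72), Ccl5 (2.65) and Cxcl16 (2.55) completed the rises (largest adjusted p = 0.033). Tnf, the early cytokine of LPS responses, moved the other way, at 73.9, 249 and 169 CPM at day 3 and 985, 898 and 1194 CPM at day 0 (−2.64 ± 0.43, adjusted p = 0.00031). Every treated library lay below every untreated one. Ccl22, an attractant of CCR4-bearing T cells, fell from 65.5, 154 and 294 CPM to 15.2, 5.96 and 7.92 CPM (−4.14 ± 0.82, adjusted p = 0.0028). Il1b, the precursor of interleukin 1β, was at 1083, 869 and 926 CPM at day 3 and 889, 801 and 1138 CPM at day 0, and the groups overlapped (0.03 ± 0.26, adjusted p = 1). The most counted of the list, Ccl6, was at 2419, 1646 and 3791 CPM at day 3 and 3956, 2622 and 4903 CPM at day 0 (−0.55 ± 0.29, adjusted p = 0.53).

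Tnf was lower than in untreated cells at the other days as well, with 396 to 567 CPM at day 1 and 189 to 216 CPM at day 7. The day 7 range lies within that of day 3, 73.9 to 249 CPM. Days 1, 3 and 7 share a library prefix that day 0 lacks, so LPS and the prefix cannot be told apart here either. Il1b was at 1739 to 3986 CPM at day 1 and fell from there to day 3 by 1.62 on the log2 scale (adjusted p = 0.0015).

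Aoah, which breaks down LPS, rose, and the receptor Tlr4 was not called. Of 21 sensing and signalling genes, 1 rose and 1 fell (together 9.52%, beside 2.51% of all genes), with a median of −0.05. Aoah, acyloxyacyl hydrolase, which removes secondary acyl chains of LPS, was at 113, 170.0 and 113 CPM at day 3 and 1.05, 1.16 and 0.932 CPM at day 0 (6.96 ± 0.37, adjusted p = 1.1e-12). The fall was the NF-κB subunit Rel, at 80.3, 80.9 and 71.1 CPM at day 3 and 178, 196 and 172 CPM at day 0 (−1.23 ± 0.33, adjusted p = 0.040), a call lost under 11 of 26 alternatives. Tlr4 (−0.23, adjusted p = 1), its partner Ly96 (1.12, adjusted p = 1) and the adaptor Myd88 (−0.11, adjusted p = 1) were not called. Aoah at day 7 was at 16.2 to 23.2 CPM, lower than at day 3 by the contrast within the prefix (−2.79 ± 0.27, adjusted p = 2.0e-07).

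Among inhibitors that the pathway induces, falls were more numerous than rises. Of 16 such genes, 5 fell (31.2%, beside 0.723% of all genes) and 2 rose, with a median of −0.31. Nfkbiz, an atypical IκB protein, was at 112, 275 and 211 CPM at day 3 and 618, 497 and 615 CPM at day 0 (−1.53 ± 0.30, adjusted p = 0.0025). Tnfaip3, the ubiquitin-editing enzyme A20, was at 409, 657 and 567 CPM at day 3 and 1699, 1217 and 1245 CPM at day 0 (−1.35 ± 0.23, adjusted p = 0.00051). The mRNA-decay protein Zfp36 (−1.34), the phosphatase Dusp1 (−1.02) and Nfkbia (−0.90), which encodes IκBα, fell as well (largest adjusted p = 0.024). The rises were Irak3, the inhibitory kinase IRAK-M, at 101, 109 and 107 CPM at day 3 and 23.3, 29.1 and 32.4 CPM at day 0 (1.91 ± 0.42, adjusted p = 0.0087), and Tnip1 (0.85, adjusted p = 0.018). Dusp1 is also in the list of stress genes described further on. Without AM_day0.1 the call of Irak3 was lost, and that of Nfkbia without AM_day0.3, AM_day3.1 or AM_day3.3.

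Interferon-stimulated genes formed one of the widest groups of rises. All 27 antiviral members had a positive difference, beside 7823 of all 17143 genes. Of the 27, 16 rose (59.3%, beside 1.78% of all genes), none fell, and the median was 2.96. Oasl2, an oligoadenylate synthetase-like protein, was at 76.0, 120.3 and 118 CPM at day 3 and 1.67, 2.59 and 2.68 CPM at day 0 (5.50 ± 0.47, adjusted p = 8.6e-09). Rsad2, viperin, was at 29.9, 67.5 and 46.7 CPM at day 3 and 1.06, 1.90 and 0.311 CPM at day 0 (5.42 ± 0.74, adjusted p = 3.7e-05). Bst2, tetherin, the most counted member, was at 181, 173 and 162 CPM at day 3 and 33.4, 30.2 and 49.2 CPM at day 0 (2.19 ± 0.39, adjusted p = 0.00062). The transcription factor Irf7 (4.45), Isg15 (3.30), Ifit1 (4.30), Ifit2 (4.17), Ifit3 (4.17) and Oas3 (4.11) were among the others called (largest adjusted p = 0.041). Oas2 rose by 4.76 ± 1.04 (adjusted p = 0.0095), a call lost on leaving out any 1 day 0 library. Mx1 (1.27, adjusted p = 0.57), Stat2 (0.69, adjusted p = 0.52) and Irf9 (0.91, adjusted p = 0.11) did not pass. Without AM_day3.2, 12 of the 27 were called.

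The large GTPases that act on vacuoles of intracellular microbes rose with them. In that list 12 of 15 rose (80.0%), none fell, and the median was 2.87. Gbp2, the most counted member, was at 534, 643 and 476 CPM at day 3 and 29.0, 25.1 and 32.5 CPM at day 0 (4.26 ± 0.63, adjusted p = 0.00015), and Gbp6 at 36.3, 33.2 and 43.2 CPM at day 3 and 2.29, 1.303 and 2.17 CPM at day 0 (4.28 ± 0.74, adjusted p = 0.00049). Gbp3 (4.14), Gbp5 (3.17), Irgm1 (2.87), Ifi47 (2.87) and Igtp (2.14) were also called (largest adjusted p = 0.026). Gbp and Tgtp genes lie in clusters of similar copies, so the share of reads given to each is uncertain. The list's sum was 1267, 1546 and 1286 CPM in the 3 day 3 libraries and 193, 187 and 176 CPM in the day 0 libraries. The count was 7 without AM_day3.2, without AM_day0.1 or without AM_day0.3.

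At day 1 the sums of both interferon lists lay above those of day 0, and at day 7 below those of day 3. At day 1 the antiviral sum was 1556 to 3102 CPM and the GTPase sum 1343 to 4305 CPM, and AM_day1.3 was the lowest library for both. No member of either list was called between days 1 and 3, where edgeR called 0.834% of all genes. Between days 3 and 7, 15 antiviral members and 7 GTPases fell (1.35% of all genes fell), or 10 and 5 without AM_day3.2. The sums at day 7 were 447 to 481 and 333 to 372 CPM.

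Windows of Rsad2 and Gbp2 are printed as examples from the interferon lists. They are chr12:26456403-26456702 on the minus strand and chr3:142620413-142620712 on the plus strand, with the same patterns in capitals.
Rsad2: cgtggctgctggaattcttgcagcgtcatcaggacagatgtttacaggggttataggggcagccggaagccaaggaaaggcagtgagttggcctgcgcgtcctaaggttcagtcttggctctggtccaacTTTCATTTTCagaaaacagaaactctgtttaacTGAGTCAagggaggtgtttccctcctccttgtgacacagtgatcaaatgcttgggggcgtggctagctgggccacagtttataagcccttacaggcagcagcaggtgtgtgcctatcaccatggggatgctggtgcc
Gbp2: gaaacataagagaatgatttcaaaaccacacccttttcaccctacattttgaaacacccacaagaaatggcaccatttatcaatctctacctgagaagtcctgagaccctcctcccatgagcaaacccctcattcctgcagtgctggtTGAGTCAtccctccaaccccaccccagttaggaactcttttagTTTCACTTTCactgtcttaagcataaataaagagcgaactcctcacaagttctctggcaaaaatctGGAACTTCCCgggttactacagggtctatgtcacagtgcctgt
Rsad2 held an ISRE match from −120 to −111 and an AP-1 match from −87 to −81. Gbp2 held an AP-1 match from −102 to −96, an ISRE match from −59 to −50 and a κB match from 7 to 16. Of the antiviral genes with a window 10 of 19 held the ISRE pattern, and of the GTPases 9 of 10, beside 3.25% of all windows. The GAS pattern was in 6 of the 10 GTPase windows and 4 of the 19 antiviral windows, beside 7.00%. In the acute phase list 10 of 16 windows held the C/EBP pattern, beside 8.71%. Windows of some other called genes were searched and are not printed. Those of Bst2, Ifit1, Lcn2 and Aoah held matches. Those of Oasl2, Irf7, Acod1 and Itgam, which also rose, and of Tnf, which fell, held no match to any of the patterns.

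**Figure D3:**
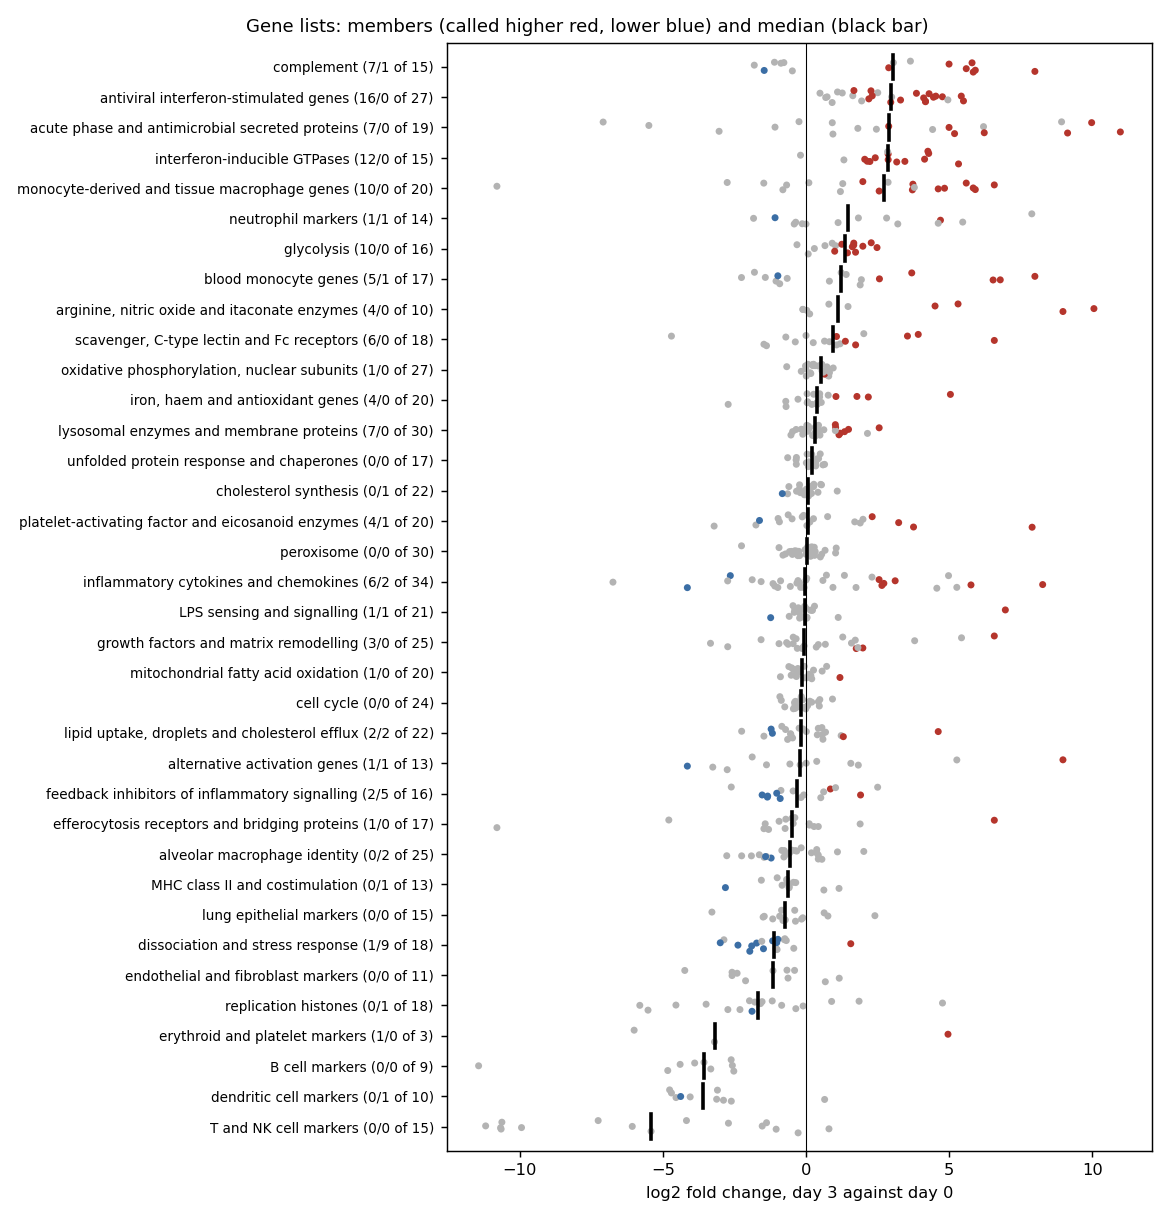
Log2 fold change of each tested member (points) of 36 gene lists, sorted by median (black bars), with called rises red, called falls blue and the counts of rises and falls of tested members beside each name. Complement, both interferon lists, acute phase proteins and monocyte-derived macrophage genes have the highest medians, and lymphocyte and dendritic cell markers the lowest, with fitted values beyond −9 belonging to genes without a day 3 count.

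Enzymes of arginine, nitric oxide and itaconate rose strongly and by few members. In that list 4 of 10 rose (40.0%, beside 1.78%), none fell, and the median was 1.13. Nos2, inducible nitric oxide synthase, was at 36.9, 181 and 248 CPM at day 3 and 0.376, 0 and 0 CPM at day 0 (10.05 ± 1.32, adjusted p = 3.7e-05). Nos2 and Arg1 compete for arginine, and both were up in all 3 day 3 libraries, with AM_day3.1 the lowest for each. Acod1, which makes itaconate from cis-aconitate, was at 428, 635 and 516 CPM at day 3 and 7.09, 12.6 and 20.2 CPM at day 0 (5.31 ± 0.55, adjusted p = 1.1e-06), and Ass1, which regenerates arginine from citrulline, rose by 4.51 (adjusted p = 3.1e-06). The transporter Slc7a2, the most counted member, was at 912, 908 and 1056 CPM at day 3 and 673, 663 and 318 CPM at day 0 (0.80 ± 0.48, adjusted p = 0.64). In the alternative activation list 1 of 13 rose (Arg1) and 1 fell (Ccl22), together 15.4%, beside 2.51% of all genes. Arg1 is also a marker of this part and Ccl22 was counted with the cytokines. Retnla, another gene of that state, was not called (1.83, adjusted p = 1). Chil3, a chitinase-like lectin of alveolar macrophages, was at 19713, 16801 and 16144 CPM at day 3 and 13643, 11257 and 15723 CPM at day 0 (0.37 ± 0.41, adjusted p = 1).

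Glycolysis held the most rises of the metabolic lists. Of 16 tested members 10 rose (62.5%), none fell, and the median was 1.35. The glucose transporter Slc2a1 was at 164, 164 and 138 CPM at day 3 and 26.6, 32.2 and 37.3 CPM at day 0 (2.28 ± 0.31, adjusted p = 2.2e-05). Pfkl, a phosphofructokinase subunit, was at 271, 385 and 189 CPM at day 3 and 50.6, 44.2 and 56.8 CPM at day 0 (2.48 ± 0.42, adjusted p = 0.00045). Pyruvate kinase, Pkm, the most counted member, was at 1537, 2621 and 1870.1 CPM at day 3 and 804, 846 and 884 CPM at day 0 (1.25 ± 0.23, adjusted p = 0.00089). In all 3 the treated libraries lay above the untreated ones, which for Slc2a1 and Pfkl was a condition of being named. The steps from Pgk1 (1.67) through Pgam1 (1.67) and Eno1 (1.45) to Ldha (1.00) and the lactate exporter Slc16a3 (1.62) were called higher too (largest adjusted p = 0.0058). Gapdh (0.08) and Hk2 (1.03) were not called (adjusted p = 1 and 0.12). AM_day3.2 was the highest day 3 library for 14 of the 16, and without it the count was again 10. The list's sum was 6363 to 9162 CPM at day 3, 6164 to 7167 at day 1, 3034 to 3526 at day 0 and 3479 to 3903 at day 7. From day 3 to day 7, 10 of the 16 fell, or 3 without AM_day3.2.

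Mitochondrial, peroxisomal and sterol lists gave 3 calls among 99 members (3.03%), a share near the 2.51% of all genes. Nuclear genes of oxidative phosphorylation had a positive difference in 23 of 27 members, a median of 0.54 and 1 call, Cox4i1 (0.65 ± 0.17, adjusted p = 0.036), lost under 12 of 26 alternatives. The most counted of them, the ATP synthase subunit Atp5b, was at 829, 848 and 898 CPM at day 3 and 792, 830.0 and 965 CPM at day 0, with overlap (adjusted p = 1). In mitochondrial fatty acid oxidation 1 of 20 rose, Echs1 (1.19 ± 0.24, adjusted p = 0.0029), while the carnitine transferase Cpt1a was at 191, 217 and 299.7 CPM at day 3 and 549.6, 439.9 and 324 CPM at day 0 (−0.89 ± 0.32, adjusted p = 0.20). None of 30 peroxisomal genes was called by edgeR or DESeq2, and 3 had an unadjusted p under 0.05 (10.7% of all genes did), with a median of 0.03 and a sum of 1986 to 2258 CPM against 2485 to 2917 at day 0. In cholesterol synthesis the sterol-responsive factor Srebf2 fell (−0.83 ± 0.21, adjusted p = 0.029), a call lost under 7 alternatives, and the other 21 were not called.

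Lpcat2, which makes platelet-activating factor (PAF), rose beside Pla2g7, which degrades it, while other PAF enzymes were not called. Of 20 PAF and eicosanoid genes, 4 rose (20%, beside 1.78% of all genes) and 1 fell (5.00%, beside 0.723%), with a median of 0.08. Lpcat2 was at 189, 169.7 and 107 CPM at day 3 and 8.86, 8.79 and 16.8 CPM at day 0 (3.76 ± 0.31, adjusted p = 5.0e-09). Its relative Lpcat1 (0.75, adjusted p = 0.68) and the intracellular PAF hydrolase subunits Pafah1b1 (−0.13), Pafah1b2 (−0.08) and Pafah1b3 (−0.49, each with adjusted p = 1) did not pass. The PAF receptor Ptafr rose by 2.31 (adjusted p = 2.8e-06). Prostaglandin E synthase, Ptges, was at 94.5, 129 and 157 CPM at day 3 and 8.24, 15.5 and 16.7 CPM at day 0 (3.24 ± 0.45, adjusted p = 2.9e-05). The leukotriene enzyme Alox5 fell (−1.62, adjusted p = 0.011), and the inducible cyclooxygenase Ptgs2 was not called (1.99, adjusted p = 0.083). Pla2g15, a lysosomal phospholipase and the most counted member, was at 179, 232 and 280.2 CPM at day 3 and 511, 409 and 394 CPM at day 0 (−0.93 ± 0.42, adjusted p = 0.41).

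Complement genes had the highest median of the lists, 3.05, with 7 of 15 called higher (46.7%, beside 1.78% of all genes) and 1 lower (6.67%, beside 0.723%). Most of these rises are counted in other lists too. C3 and Cfb are also acute phase members, the C1q chains monocyte-derived members and Itgam a blood monocyte member. The 3 chains of C1q, which starts the classical pathway, rose together. C1qb was at 175, 568 and 152 CPM at day 3 and 3.92, 4.18 and 6.81 CPM at day 0 (5.91 ± 0.63, adjusted p = 1.6e-06). C1qc was at 77.4, 338 and 71.1 CPM at day 3 and 1.73, 2.16 and 4.69 CPM at day 0 (5.84 ± 0.72, adjusted p = 1.5e-05). C1qa rose by 5.60 (adjusted p = 1.0e-06). In each, AM_day3.2 was far above the other day 3 libraries, which still lay above day 0. The C3a receptor C3ar1 (5.80, adjusted p = 6.5e-05) rose and the C5a receptor C5ar1 (−1.46, adjusted p = 0.0022) fell. Itgam, the CD11b chain of complement receptor 3, was at 359.9, 447 and 271 CPM at day 3 and 1.99, 1.66 and 0.480 CPM at day 0 (7.99 ± 0.57, adjusted p = 1.5e-09). Its relative Itgax (CD11c), high in alveolar macrophages, was at 1061, 576 and 971 CPM at day 3 and 1732, 1429.8 and 1295 CPM at day 0 (−0.77 ± 0.31, adjusted p = 0.30).

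Genes of alveolar macrophage identity were, in sum, far above their level in bone marrow-derived cells at day 3, as the label of resident cells has it, and most of them were below their level in untreated cells. The list of 25 summed to 37780.0, 30546 and 34592 CPM in the 3 day 3 libraries, against 32372 to 38367 CPM at day 0 and 5282 to 7866 CPM in bone marrow-derived cells at day 3. Chil3 made up 46.7% to 55.0% of the day 3 sums and 34.8% to 41.0% of the day 0 sums. Without it the other 24 summed to 18067, 13745 and 18448 CPM at day 3 and 23151, 21115 and 22644 CPM at day 0, so every treated library was lower, and to 2858 to 5217 CPM in bone marrow-derived cells. Of the 25 none rose, 2 fell (8%, beside 0.723% of all genes), and the median was −0.57. In 15 of the 25 the day 3 libraries lay entirely below those of day 0 and in 4 entirely above, together 76.0%, beside 33.7% of all genes. DESeq2 called 3 (5.47% of all genes were), and 11 had an unadjusted p under 0.05, where 10.7% of all genes did. Siglecf, the sialic acid-binding lectin used to sort these cells in many studies, was at 153, 129 and 242 CPM at day 3 and 534, 447 and 466 CPM at day 0. The groups did not overlap, but the difference of −1.47 ± 0.61 was not called (adjusted p = 0.35). Pparg was at 156, 113 and 157 CPM at day 3 and 259, 196 and 266 CPM at day 0 (−0.76 ± 0.36, adjusted p = 0.45). The cholesterol exporter Abcg1 was at 940.2, 745 and 1197 CPM at day 3 and 2513, 2148 and 2044 CPM at day 0 (−1.22 ± 0.25, adjusted p = 0.0031). The transcription factor Bhlhe40 was at 195, 277 and 254 CPM at day 3 and 723, 621 and 589 CPM at day 0 (−1.41 ± 0.29, adjusted p = 0.0034). The scavenger receptor Marco (2.02), the fatty acid carrier Fabp1 (−2.77) and the keratin Krt79 (−0.33) were not called (adjusted p = 0.26, 0.49 and 1). At day 7 Siglecf was at 441 to 561 CPM, overlapping day 0. Abcg1 rose from day 3 to day 7 (1.15 ± 0.23, adjusted p = 0.0051), a call lost without AM_day3.2 (adjusted p = 0.0926).

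Genes associated with macrophages of monocyte origin and of other tissues rose in the same libraries. Of 20, 10 rose (50%), none fell, and the median was 2.71. Mmp14, a membrane matrix metalloproteinase, was at 826, 901 and 602 CPM at day 3 and 3.64, 6.43 and 14.5 CPM at day 0 (6.58 ± 0.47, adjusted p = 1.2e-09). Apoe, a lipid carrier, was at 1527, 6035 and 949 CPM at day 3 and 107, 115 and 126 CPM at day 0 (4.62 ± 0.64, adjusted p = 8.2e-05). AM_day3.2 came near the lowest bone marrow-derived library of day 3, where the range was 6824 to 20736 CPM. The transcription factor Maf (3.73), the fractalkine receptor Cx3cr1 (3.72) and the tetraspanin Cd63 (2.55) rose too (largest adjusted p = 0.024). Spp1 (−0.68), Folr2 (−0.81) and Lyve1 (−1.47) were not called (each with adjusted p = 1). Fibronectin, Fn1, the most counted member, was at 2923, 3493 and 3027 CPM at day 3 and 1672, 1285 and 924 CPM at day 0 (1.28 ± 0.38, adjusted p = 0.083).

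Blood monocyte genes rose in part. Of 17, 5 rose (29.4%, beside 1.78% of all genes) and 1 fell (5.88%, beside 0.723%), with a median of 1.23. Ly6c2, a surface marker of classical monocytes, was at 339, 1188 and 430.4 CPM at day 3 and 5.53, 4.43 and 7.85 CPM at day 0 (6.78 ± 0.70, adjusted p = 1.1e-06). Ly6i, at 226, 431 and 226 CPM at day 3 and 0.363, 0.0939 and 0.0847 CPM at day 0 (10.55 ± 0.77, adjusted p = 1.8e-09), lies in the same family of similar genes, and the division of reads among them is uncertain. F13a1, the A subunit of coagulation factor XIII, was at 85.8, 526 and 160.1 CPM at day 3 and 2.27, 3.31 and 2.74 CPM at day 0 (6.53 ± 0.95, adjusted p = 0.00013). The monocyte chemokine receptor Ccr2 was at 18.4, 57.5 and 23.5 CPM at day 3 and 39.5, 54.1 and 63.2 CPM at day 0 (−0.66 ± 0.61, adjusted p = 0.96). The nuclear receptor Nr4a1 fell (−0.98, adjusted p = 0.017). The count of rises was 3 without AM_day0.1.

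AM_day3.2 held more of these transcripts than its replicates. It was the highest of the 3 day 3 libraries for 13 of 20 monocyte-derived genes and the lowest for 4. For the 17 blood monocyte genes these counts were 12 and 3, and for the 25 identity genes 2 and 16. The share of all genes with such ranks was not counted, here or for the other lists. The monocyte-derived sum was 9406, 15727 and 8725 CPM in libraries 1, 2 and 3, beside 3520.1 to 4158 at day 0 and 16676 to 34636 in bone marrow-derived cells at day 3. The 16676 CPM is that of BM_day3.1, which held markers of other cells, and its replicates held 19339 to 34636 CPM. Without AM_day3.2, 9 monocyte-derived genes and 4 blood monocyte genes were called higher, and the median of the blood monocyte list turned from 1.23 to −0.52. The part of cells of bone marrow origin in these differences was not tested.

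**Figure D4:**
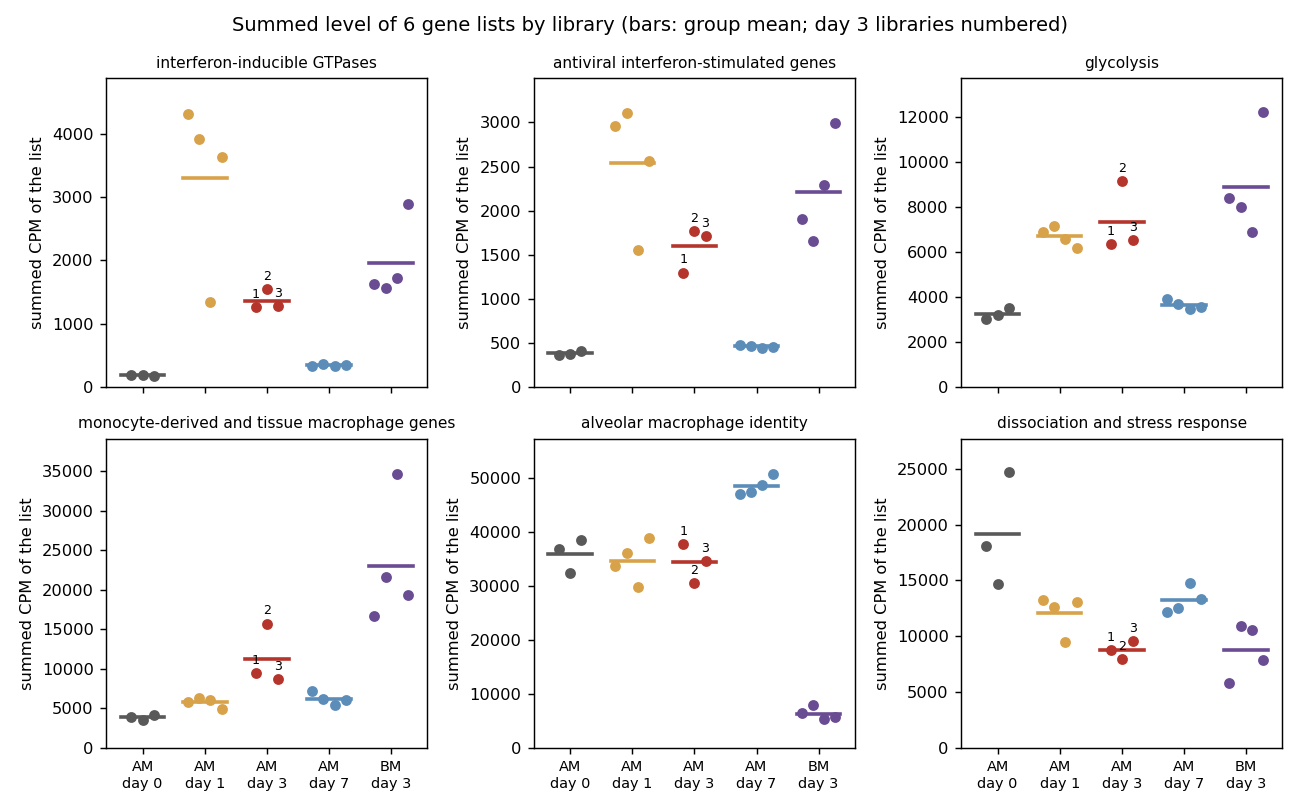
Summed CPM of 6 gene lists in each library (points, bars at the group means), with the 3 day 3 resident libraries numbered. Interferon and glycolysis sums at day 3 lie above those of days 0 and 7, identity sums overlap with day 0 with Chil3 counted, though not without it, and library 2 holds the highest monocyte-derived sum of the resident libraries.

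Receptors for uptake rose in part. Of 18 scavenger, C-type lectin and Fc receptors, 6 rose (33.3%, beside 1.78% of all genes) and none fell, with a median of 0.94, or 1.06 without a member at 0 in all 6 libraries. The scavenger receptor Stab1 was at 125, 525 and 165 CPM at day 3 and 2.57, 4.14 and 1.75 CPM at day 0 (6.58 ± 0.65, adjusted p = 5.5e-07), again highest in AM_day3.2. Msr1, which takes up modified lipoproteins, was at 189.7, 256 and 162 CPM at day 3 and 15.4, 11.6 and 13.1 CPM at day 0 (3.92 ± 0.36, adjusted p = 2.7e-08). The lectin Clec4d was at 463, 441 and 287 CPM at day 3 and 30.2, 25.6 and 46.3 CPM at day 0 (3.54 ± 0.44, adjusted p = 8.0e-06). The IgG receptors Fcgr1 (1.37) and Fcgr2b (1.73) and their signalling chain Fcer1g (1.06) rose as well (largest adjusted p = 0.013). Clec7a, the receptor for β-glucan, was at 1839, 1103 and 1586 CPM at day 3 and 1458, 1127 and 1214 CPM at day 0 (0.25 ± 0.44, adjusted p = 1). Among receptors and bridging proteins of efferocytosis only Stab1 of 17 was called (5.88%, beside 2.51% of all genes), while Mertk (−0.49) and Axl (−0.94) were not (adjusted p = 0.67 and 0.51).

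Among lysosomal and iron genes, the cathepsins Ctsl, Ctsb and Ctsz and ferritin heavy chain rose by 1.03 to 1.35 on the log2 scale. Slc11a1 rose by 5.04 from a low level. Of 30 lysosomal genes 7 rose (23.3%, beside 1.78% of all genes), or 4 without AM_day3.2, none fell, and the median was 0.32. Cathepsin L, Ctsl, was at 515, 541 and 515 CPM at day 3 and 207, 192 and 218 CPM at day 0 (1.35 ± 0.30, adjusted p = 0.0073). The cathepsins Ctsb (1.03) and Ctsz (1.15), legumain Lgmn (1.19) and progranulin Grn (1.02) rose as well (largest adjusted p = 0.0089). Cathepsin S, Ctss, the most counted member of the list, was not called. It made up 14.6% to 17.8% of the list's sums at day 3 and 15.2% to 15.8% at day 0. Slc11a1 (Nramp1), which exports iron and manganese from phagosomes, was at 146, 278 and 225 CPM at day 3 and 6.51, 4.48 and 8.73 CPM at day 0 (5.04 ± 0.40, adjusted p = 1.8e-09). Ferritin heavy chain, Fth1, was at 16581, 17834 and 17472 CPM at day 3 and 7646, 6858 and 10624 CPM at day 0 (1.05 ± 0.25, adjusted p = 0.014). The mitochondrial superoxide dismutase Sod2 was at 605, 568 and 570.3 CPM at day 3 and 137, 164 and 207 CPM at day 0 (1.78 ± 0.28, adjusted p = 0.00017). The cystine importer Slc7a11 rose by 2.18 ± 0.44 (adjusted p = 0.0033). Ctsl lost its call without AM_day0.2 (adjusted p = 0.0531), and Fth1 without AM_day0.1, AM_day0.2 or AM_day3.2. Of 17 genes of the unfolded protein response edgeR called none and DESeq2 1, beside 2.51% and 5.47% of all genes. An unadjusted p under 0.05 was found for 4, beside 10.7% of all genes, and the median was 0.20.

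Lipid handling and matrix genes changed in part. Of 22 genes of lipid uptake and cholesterol efflux 2 rose (Apoe and Npc2) and 2 fell (Abcg1 and Nceh1), together 18.2%, beside 2.51% of all genes. Lipoprotein lipase, Lpl, was at 4246, 2857 and 3551 CPM at day 3 and 2459.6, 2568 and 2227 CPM at day 0 (0.55 ± 0.31, adjusted p = 0.59). Of 25 growth factor and matrix genes 3 rose (12%), Mmp14 among them. Tgfbi, a matrix protein induced by TGF-β, was at 2917, 4096 and 2846 CPM at day 3 and 947, 981 and 996 CPM at day 0 (1.75 ± 0.21, adjusted p = 2.9e-06). The macrophage elastase Mmp12 was at 74.1, 34.1 and 60.2 CPM at day 3 and 11.3, 9.79 and 21.5 CPM at day 0 (1.98 ± 0.54, adjusted p = 0.049), a call lost under 14 alternatives. In the class II and costimulation list none of 13 rose and 1 fell (7.69%, beside 0.723% of all genes). The maturation marker Cd83 fell from 274, 432 and 600.2 CPM to 43.2, 73.5 and 69.0 CPM (−2.81 ± 0.54, adjusted p = 0.0028). The class II genes H2-Ab1 (−0.44) and H2-Aa (−0.66) were not called (both with adjusted p = 1).

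Immediate-early and heat shock genes were lower. In a list of 18 genes known to respond to tissue dissociation and stress, 9 fell (50%), 1 rose (Ier3), and the median was −1.10. Btg2, an antiproliferative early gene, was at 224, 157 and 190.3 CPM at day 3 and 910.5, 629 and 689 CPM at day 0 (−1.96 ± 0.31, adjusted p = 0.00018). Ier2, induced within minutes of many stimuli, was at 149, 209.7 and 216 CPM at day 3 and 921, 496 and 722 CPM at day 0 (−1.90 ± 0.31, adjusted p = 0.00022). Jun (−1.17), Fosb (−1.72) and Hspa1b (−2.99) fell too (largest adjusted p = 0.049). Fos (−1.04) and Junb (−0.74) were not called (both with adjusted p = 0.096). The sum was 18072, 14682 and 24673 CPM in the untreated libraries, 7909 to 9574 at day 3, 9449 to 13243 at day 1 and 12164 to 14791 at day 7. The count of falls was 5 without AM_day3.1 and 3 without AM_day3.2. Tnf, Nfkbiz, Tnfaip3 and Cd83 fell beside these genes, and the part of cell handling in any of them was not tested.

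No cell cycle gene passed the test. Of 24, edgeR and DESeq2 called none and 1 had an unadjusted p under 0.05, where 10.7% of all genes did. The median was −0.17, and 19 of the 24 were lowest in AM_day3.2 among the day 3 libraries. Mki67, the Ki-67 antigen of dividing cells, was at 248, 155 and 208 CPM at day 3 and 181, 171 and 86.1 CPM at day 0 (0.48 ± 0.31, adjusted p = 0.68). The groups overlapped. Of 18 replication histones 1 fell (5.56%, beside 0.723% of all genes). This was the linker histone Hist1h1c, at 50.05, 29.0 and 46.3 CPM at day 3 and 177, 122 and 164 CPM at day 0 (−1.89 ± 0.35, adjusted p = 0.0013). Most core histone transcripts lack a poly(A) tail, so poly(A)-selected libraries read them in part.

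Markers of other cell types were summed over each list, and the sums of lymphocyte and dendritic cell markers were lower at day 3 than at day 0. Summed T and NK cell markers were 75.6, 137 and 131 CPM at day 0 and 21.3, 33.03 and 28.4 at day 3, with Cd8a, Cd8b1, Trac, Trbc1 and Trbc2 at 0 in all day 3 libraries. Il7r, the interleukin 7 receptor, also found outside T cells, made up most of the day 3 sums, at 14.5, 26.9 and 26.4 CPM at day 3 and 17.9, 38.5 and 25.8 CPM at day 0 (adjusted p = 1). B cell markers were 227 to 287 CPM at day 0 and 14.03 to 71.9 at day 3, and dendritic cell markers 145 to 398 and 38.4 to 45.2. Of these genes edgeR called Ccr7 alone. DESeq2 called 5 of 15 T and NK cell markers, 1 of 9 B cell markers and 1 of 10 dendritic cell markers, beside 5.47% of all genes. Unadjusted p-values under 0.05 numbered 7, 2 and 4 in these lists, beside 10.7% of all genes. Ccr7, the receptor that guides dendritic cells to lymph nodes, was at 3.42, 0.701 and 5.67 CPM at day 3 and 37.8, 66.5 and 98.8 CPM at day 0 (−4.38 ± 1.07, adjusted p = 0.020), a call lost under 6 alternatives. Neutrophil markers summed to 358 to 562 CPM at day 3 and 352 to 497 at day 0, but Trem1, which macrophages also make, was 72.8% to 76.3% of the day 0 sums, and without it the sums were 210.2, 400.2 and 219 CPM at day 3 and 118, 95.9 and 108 at day 0. The list had a median of 1.47, or 1.83 with Camp at its bound and without members at 0 in both groups. Of 14 tested, 1 rose and 1 fell (14.3%, beside 2.51% of all genes). DESeq2 called 4, beside 5.47% of all genes, and 6 neutrophil markers had an unadjusted p under 0.05, beside 10.7%. Their part in the differences was not tested. S100a8, a calcium-binding protein of neutrophils and monocytes, was at 97.5, 112 and 76.5 CPM at day 3 and 4.36, 2.76 and 3.93 CPM at day 0 (4.70 ± 0.79, adjusted p = 0.00066). S100a9, its partner, was at 29.0, 75.8 and 10.8 CPM at day 3 and 0.989, 0.458 and 1.19 CPM at day 0 (5.47 ± 1.56, adjusted p = 0.076). Camp and Ltf, proteins of neutrophil granules, reached at most 2.67 and 1.80 CPM at day 3 and 0 and 0.141 CPM at day 0, and Ly6g, a surface protein of neutrophils, had no count in the 6 libraries. Trem1 fell (−1.08 ± 0.28, adjusted p = 0.030), a call lost under 7 alternatives. Epithelial markers summed to 101 to 147 CPM at day 3 and 256 to 386 at day 0, and endothelial and fibroblast markers to 77.8 to 127 and 116 to 190.2. Neither edgeR nor DESeq2 called a member of these lists. An unadjusted p under 0.05 was found for 3 of 15 and 1 of 11 members, beside 10.7% of all genes. Eosinophil and mast cell markers summed to at most 0.270 CPM at day 3 and 1.52 CPM at day 0. Platelet factor 4, Pf4, which macrophages also make, rose from 1.603, 1.12 and 0.424 CPM to 43.7, 22.6 and 32.8 CPM (4.96 ± 0.63, adjusted p = 6.4e-06).

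Several of the 10 largest falls are genes best known from lymphocytes. Tcf7, a transcription factor of T cells, was at 0, 0 and 0 CPM at day 3 and 22.3, 29.2 and 37.7 CPM at day 0, at least 356-fold lower against a floor of 3 counts over the group (adjusted p = 0.018). Cd5, a surface protein of T and some B cells, was at 0, 0 and 0 CPM at day 3 and 4.43, 5.69 and 6.35 CPM at day 0, at least 67.7-fold lower (adjusted p = 0.044), a call lost under 14 alternatives. Ets1, a transcription factor of lymphocytes and endothelium, was at 3.65, 0.561 and 1.53 CPM at day 3 and 40.8, 83.8 and 51.9 CPM at day 0 (−4.94 ± 0.90, adjusted p = 0.00096). Acap1, a GTPase-activating protein for ARF6, was at 4.27, 6.38 and 7.38 CPM at day 3 and 52.8, 58.3 and 66.1 CPM at day 0 (−3.30 ± 0.56, adjusted p = 0.00041). Cd244a, a receptor of NK cells, was at 3.65, 7.22 and 5.58 CPM at day 3 and 29.3, 34.1 and 33.4 CPM at day 0 (−2.55 ± 0.57, adjusted p = 0.0093). Id3, an inhibitor of basic helix-loop-helix factors, was at 5.21, 11.2 and 9.08 CPM at day 3 and 30.4, 59.5 and 93.1 CPM at day 0 (−2.84 ± 0.66, adjusted p = 0.012). These falls run beside the lower sums of lymphocyte and dendritic cell markers, whose part in them was not tested. Tcf7 lost its call on leaving out any day 3 library, Id3 without AM_day0.3, AM_day3.1 or AM_day3.3 and with the replicate block of the descriptions, and Cd244a without AM_day3.1 or AM_day3.3. Acap1 was at 4.73 to 10.7 CPM at day 1 and again at 48.6 to 64.8 CPM at day 7, overlapping the untreated cells. The others stayed below their day 0 ranges at day 7. There Tcf7 was at 0.291 to 1.32 CPM, Cd5 at 0 to 1.73, Ets1 at 3.45 to 4.48, Id3 at 7.82 to 13.5 and Cd244a at 6.03 to 12.9. Day 7 shares the prefix of day 3, so LPS and the prefix cannot be told apart in these falls. T and NK markers at day 7 summed to 8.93 to 16.6 CPM.

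The largest rises beside those already named were Cbln1, Inpp5j and Tarm1. Cbln1, a secreted C1q-related protein best known at synapses of the cerebellum, was at 168, 26.6 and 25.3 CPM at day 3 and 0, 0 and 0 CPM at day 0, at least 4933-fold higher against the same floor (adjusted p = 0.00062). AM_day3.1 stood far above its replicates. Day 1 and day 7 libraries held 88.9 to 451 and 32.3 to 63.3 CPM, while bone marrow-derived cells at day 3 held 0 to 13.9. Inpp5j, an inositol phosphatase, was at 2.56, 20.9 and 3.33 CPM at day 3 and 0, 0 and 0 CPM at day 0, at least 643-fold higher (adjusted p = 0.035), a call lost under 7 alternatives. Tarm1, an activating receptor of myeloid cells, was at 13.3, 44.3 and 21.1 CPM at day 3 and 0.213, 0 and 0 CPM at day 0 (8.30 ± 1.34, adjusted p = 0.00022).

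Contrasts within the prefix 5341 called fewer genes than the one with day 0. From day 1 to day 3, 107 genes rose (0.624%) and 36 fell (0.210%). From day 3 to day 7, 40 rose (0.233%) and 232 fell (1.35%), together 1.59%. The split again depended on the model. Of the genes called from day 1 to day 3 74.8% were rises, or 45.5% of 198 in a fit to the 2 groups alone. From day 3 to day 7 rises were 14.7%, or 51.0% of 2246 in a fit to the 2 groups alone, 38.8% of 642 with DESeq2 and 39.2% of 758 with resident libraries alone. Without AM_day3.2 the totals were 31 in place of 143 for day 3 against day 1 and 135 in place of 272 for day 7 against day 3. Of the monocyte-derived list 6 of 20 rose from day 1 to day 3, and none without AM_day3.2. Apoe differed by 2.66 ± 0.53 (adjusted p = 0.014) and C1qb by 2.28 ± 0.48 (adjusted p = 0.020), and without that library the adjusted p-values reached 0.337 and 0.359. Ly6c2 rose by 3.22 ± 0.53 from day 1 (adjusted p = 0.0026), a call that no library left out ended. At day 7 it was at 0.581 to 1.52 CPM, below the day 0 range. The fall of Il1b from day 1 also kept its call with each library left out. Sod2 fell from 1229 to 1998 CPM at day 1 (−1.43 ± 0.27, adjusted p = 0.0053), with an adjusted p of 0.064 without AM_day3.2.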

How the data were processed

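RNA of mouse lung macrophages was read as stranded, poly(A)-selected libraries, per the labels' protocols. Reads were handled with FastQC 0.11.9, Trimmomatic 0.39, HISAT2 2.1.0 and featureCounts 2.0.0 on GRCm38, per the submitters' processing notes. The strand setting and annotation release are not given in the sources used here, so overlapping and antisense genes may share reads. The authors deposited 1 table of whole-number counts for 55487 Ensembl genes, used as deposited, and 55227 of these received a symbol and position from GENCODE on GRCm38.

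Groups follow the cell type, treatment and day in the labels. Genes were kept by edgeR's filterByExpr with a minimum count of 10, scaled by TMM and tested with edgeR 4.0.16 (glmQLFit, glmQLFTest, R 4.3.3) on all 26 libraries in 7 groups, with no covariate and Benjamini-Hochberg adjustment over 17143 genes. DESeq2 1.42.0 on the same counts was an alternative. The script was tested on simulated data. A permutation of single genes between 3 and 3 libraries could not go below 0.1. At the lower depth of day 3, a transcript of a few counts is not well measured.

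The 4 markers, the gene lists and the comparison were chosen with earlier results of these data known. Genes named are those 4, 9 others set in advance, the 10 largest called rises and falls with at least 5 CPM and no overlap, and in each list up to 3 called members and the most counted one. Further list members are examples chosen after their values were seen. Some genes are in several lists, so the counts of different lists are not independent. Genes sharing a symbol, Aldoa and Ddit3 among them, were left out of lists. Promoter windows came from RefSeq on GRCm38.p6. Alternatives covered scaling, filters, the samples in the fit, a replicate block, thinning, and each resident library left out in turn.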

Additional observations from a re-analysis of the deposited data

Results flagged for a closer look

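Several genes named at day 3 had another level at day 1 or day 7, by the test of that difference. Between days 1 and 3, Saa3 rose by 3.51 on the log2 scale, Ly6c2 by 3.22, Pla2g7 by 2.03 and Hp by 1.62, while Il1b differed by −1.62. Between days 3 and 7, the differences were −9.34 for Saa3, −9.25 for Ly6c2, −5.74 for Arg1, −4.97 for Pla2g7, −4.47 for Itgam and −2.99 for Hp. Of the other large rises, Nos2 differed by −7.44, Ly6i by −5.62, Lcn2 by −5.26 and Tarm1 by −3.89 between the same days. Il12a had a fitted value of −10.05, but no count in any day 7 library, so that value is not a fold change. Acap1 alone of the large falls was called higher at day 7 than at day 3, by 3.23.

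Single libraries stood apart from their replicates in some named genes at other days, by Dixon's criterion, which chance meets in about 1 of 20 groups. In resident cells these were Inpp5j at 1.95 CPM in AM_day1.1, Nos2 at 1.27 CPM in AM_day7.1, and Ccl22 at 178 CPM in AM_day1.3 and 38.7 CPM in AM_day7.1. In bone marrow-derived cells at day 3, BM_day3.1 held 21.8 CPM of Acap1 and 93.6 CPM of Id3, and BM_day3.4 held 1.15 CPM of Tcf7.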

How the results depend on the processing

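The number of genes called depended on the model more than on scaling or filters. For day 3 against day 0 (430 genes) DESeq2 called 937, the compared groups alone 2327, the resident libraries alone 1400 and a fit without BM_day1.3 and BM_day3.1 838, while leaving out 1 resident library gave 264 to 458. Of the 430, all were called by DESeq2, 424 by the fit to the compared groups and 428 by the fit to resident libraries. For day 3 against day 1 (143 genes) the counts were 847 with DESeq2, 1040 with resident libraries alone, 470 without BM_day1.3 and BM_day3.1, and 31 to 138 with 1 library left out. For day 7 against day 3 (272 genes) they were 642, 2246 with the compared groups alone, 758 with resident libraries alone, 470, 173 with a term for the library number, and 135 to 275. The cause of these shifts was not tested.

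Replicate numbers did not pair the libraries: same-numbered deviations correlated at −0.0114, 0.0325 and −0.0363. With the replicate block of the titles 372 genes were called and with that of the descriptions 386. The replicate block ended 6 and 9 of 74 calls of named genes.

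Of those 74, 56 were called under each of 26 alternatives. Of 29 named genes without a call, 15 were called under at least 1. Signs changed for 3 uncalled genes near 0. Il1b was −0.017 by library size alone, −0.0016 with no filter and −0.081 to 0.18 with 1 library left out. Atp5b was 0.0040 with the strict filter and with resident libraries alone, and −0.064 to 0.075 with 1 left out. Il7r ran from −0.51 to 0.050. Depth limits low transcripts at day 3, whose libraries held at most 14501585 counts.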
